A study of Mus musculus with 20 samples.

Results

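The genes described here carry arginine into the cell, consume it or rebuild it. They are Slc7a2, Nos2, Arg1, Arg2, Ass1, Asl and Odc1, chosen by symbol and found by matching the Entrez number of each gene model to its mouse symbol. All 7 were found among 36528 gene models, and all 7 passed the filter that left 15390 genes for testing. The libraries are RNA-seq of macrophages and of monocytes sorted from MC38 tumours, which are grown in mice from a colon carcinoma line. The tumours were either controls (labelled ctrl) or treated with an antibody to PD-L1 (labelled aPDL1), which engages the inhibitory receptor PD-1, and cells were taken 7 days after treatment began. Each of the 4 groups, control macrophages, treated macrophages, control monocytes and treated monocytes, held 5 libraries. The labels used here state no mouse strain, age, control agent or sorting markers. They also leave unsaid whether each library came from its own mouse, so the p-values reflect nothing beyond the scatter of these samples, possibly technical. Replicate numbers follow the order of deposit and only name libraries.

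Arginine enters myeloid cells mainly through cationic amino acid carriers of the SLC7 family. Inside the cell, the inducible nitric oxide synthase NOS2 turns it into nitric oxide and citrulline, and the arginases ARG1 (cytosolic) and ARG2 (mitochondrial) turn it into ornithine and urea. Citrulline can be rebuilt into arginine by ASS1 and then ASL, and ornithine feeds polyamine synthesis through ODC1. Nos2 is classically induced by interferon-gamma and microbial signals and Arg1 by interleukin-4 and hypoxia, and tumour myeloid cells are known for expressing both.

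The libraries held between 30191509 and 36514133 counts each. The labelled cell types were checked against their markers: 10 of 12 macrophage markers were higher and 9 of 9 monocyte markers lower in macrophages than in monocytes, in control and in treated tumours alike. The sample numbers of the control libraries all come before those of the treated ones, so that treatment and any effect of that order cannot be told apart. Control libraries also held more fibroblast RNA. The summed level of 19 fibroblast markers was 131 to 2569 CPM (counts scaled to library size) in control and 80.9 to 446 in treated macrophages, and 405 to 4041 CPM in control and 76.9 to 645 in treated monocytes, with none at 0 in all libraries of a group. Macrophage and monocyte libraries with neighbouring sample numbers deviated together from their group means and were used as a replicate block in an alternative fit by limma-voom.

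Of the 7 genes, RefSeq's promoter table for GRCm38.p6 held Ass1 and Odc1. They are shown because they stand for both patterns met below: Ass1 differed between treatments in monocytes and between cell types, and Odc1 passed in none of these tests. The Ass1 sequence is chr2:31470020-31470269, plus strand, the bases before the annotated start. That of Odc1 is chr12:17544623-17544807, plus strand, also ending at the base before the gene. Capitals mark the motif CACGTG.
Ass1: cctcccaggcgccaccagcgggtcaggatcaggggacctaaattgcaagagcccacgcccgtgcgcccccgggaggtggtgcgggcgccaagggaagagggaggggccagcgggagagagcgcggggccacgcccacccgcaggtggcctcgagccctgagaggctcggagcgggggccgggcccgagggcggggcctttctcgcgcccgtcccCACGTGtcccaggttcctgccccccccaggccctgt
Odc1: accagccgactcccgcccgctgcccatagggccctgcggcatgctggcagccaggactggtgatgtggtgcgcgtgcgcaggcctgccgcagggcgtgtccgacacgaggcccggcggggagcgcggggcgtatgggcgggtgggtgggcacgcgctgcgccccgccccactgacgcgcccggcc

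Both stretches are rich in G and C, at 75.6% of 250 bases in Ass1 and 77.8% of 185 in Odc1. The patterns searched on both strands were those of NF-kB, the interferon stimulated response element and STAT6 (named only), TTNNGNAA (C/EBP), and TATAAA, the core promoter box. The core of the hypoxia response element, ACGTG, was searched too. So was the E-box of the form CACGTG. Ass1 held 1 CACGTG, which begins 36 bases before the start and contains ACGTG on each strand. In windows of the same length, CACGTG occurred in 6.02% and ACGTG in 16.6% of 32851 promoters. The shares of the other patterns there were 3.44% (NF-kB), 2.98% (interferon element), 5.85% (STAT6), 36.8% (C/EBP) and 12.4% (core promoter box), and in the shorter windows all these patterns lay between 2.29% and 30.7%. None of the other patterns was found in Ass1 and none of the patterns in Odc1, which says only that these letters are not in these windows.

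Slc7a2 (Entrez 11988, chromosome 8, 40862341 to 40922070) encodes CAT2, the cationic carrier that brings arginine into activated macrophages. In control macrophages it was at 60.9, 51.7, 92.3, 113 and 101 CPM in replicates 1 to 5, and in treated macrophages at 70.7, 53.7, 95.5, 164 and 111 CPM. Control monocytes held 44.8, 30.5, 58.6, 36.3 and 61.3 CPM and treated monocytes 96.1, 185, 58.0, 56.1 and 75.7 CPM. Treated macrophage libraries lay within the control range except replicate 4, which stood above it, while 3 of 5 treated monocyte libraries stood above all control monocytes. In monocytes Slc7a2 rose after treatment by a log2 fold change of 1.02 (SE 0.34, edgeR quasi-likelihood test, adjusted p = 0.0328). In macrophages the change was 0.24 (SE 0.33, adjusted p = 0.713), and it was -0.18 with the level of fibroblast markers as a covariate (adjusted p = 0.993).

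The monocyte call on Slc7a2 was close to its threshold. It was lost without monocyte control replicate 1, 2, 3 or 4 or treated replicate 1 (adjusted p = 0.0611, 0.0662, 0.0522, 0.0885 and 0.0617). Without treated monocyte replicate 2, the highest library, the log2 fold change was 0.61 (adjusted p = 0.162). It was also lost by limma-voom (0.93, adjusted p = 0.0545) and in a fit of the monocyte libraries alone (adjusted p = 0.0597).

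Nos2 (Entrez 18126, chromosome 11, 78920787 to 78960226) was at 95.8, 46.7, 104, 121 and 73.2 CPM in control macrophages and 99.7, 199, 186, 248 and 183 CPM in treated macrophages. Control monocytes held 182, 148, 99.5, 217 and 298 CPM, and treated monocytes 489, 1123, 759, 301 and 374 CPM. In macrophages 4 of 5 treated libraries lay above all controls and replicate 1 lay among them. In monocytes the groups met without overlapping, the lowest treated library being at 301 and the highest control at 298 CPM. Nos2 rose in monocytes by 1.69 on the log2 scale (SE 0.35, adjusted p = 0.00509). In macrophages the change was 1.06 (SE 0.35, adjusted p = 0.071) and did not pass. It passed without macrophage control replicate 4, the control with the most Nos2, at 1.27 (adjusted p = 0.0322), and by DESeq2 (1.08, adjusted p = 0.0199).

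Arg1 (Entrez 11846, chromosome 10, 24915207 to 24927470), the cytosolic arginase, was spread widely among the treated libraries. It was at 541, 278, 320.4, 448 and 419.6 CPM in control and 323, 443, 598, 1487 and 889 CPM in treated macrophages. Control monocytes held 753, 541, 869.6, 1156 and 1067 CPM, and treated monocytes 1320.3, 2846, 1157, 676 and 1658 CPM. In both cell types the treated range reached further up than the control range, and no treated library lay below the lowest control. In macrophages treated replicates 1 and 2 lay within the controls and replicate 4 far above them. In monocytes treated replicate 4 lay within the controls and replicate 2 far above them. Treated monocyte replicate 3, at 1157.3 CPM, barely passed the highest control, at 1156.4 CPM. The log2 fold change was 0.90 in macrophages (SE 0.38, adjusted p = 0.15) and 0.80 in monocytes (SE 0.38, adjusted p = 0.121), and neither passed. Without treated macrophage replicate 4 the macrophage value was 0.54 (adjusted p = 0.399), and without treated monocyte replicate 2 the monocyte value was 0.44 (adjusted p = 0.417).

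Arg2 (Entrez 11847, chromosome 12, 79130788 to 79156301), the mitochondrial arginase, was far lower in macrophages than in monocytes. Control macrophages held 2.90, 3.13, 2.81, 2.85 and 2.50 CPM, and treated macrophages 3.65, 4.16, 3.31, 9.99 and 5.13 CPM. Control monocytes were at 20.5, 18.9, 18.6, 13.2 and 26.7 CPM and treated monocytes at 37.6, 70.5, 43.7, 31.5 and 36.2 CPM. All treated libraries lay above all controls of their own cell type, and no macrophage library reached any monocyte library. Arg2 rose in monocytes by 1.17 (SE 0.26, adjusted p = 0.00637). In macrophages the change was 0.88 (SE 0.28, adjusted p = 0.0609), and treated replicate 4 carried much of it: without that library the value was 0.57 (adjusted p = 0.164).

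Leaving out any of 5 other libraries took Arg2 in macrophages just past the threshold. These were macrophage control replicates 2 and 4, monocyte control replicates 4 and 5 and treated monocyte replicate 2, with adjusted p = 0.0491, 0.0488, 0.0451, 0.0453 and 0.0489. DESeq2 called it as well (0.90, adjusted p = 0.0175).

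Ass1 (Entrez 11898, chromosome 2, 31470270 to 31520670), which makes argininosuccinate from citrulline and aspartate, was at 35.2, 36.4, 46.4, 56.0 and 27.8 CPM in control and 53.1, 52.2, 70.3, 99.9 and 53.9 CPM in treated macrophages. Control monocytes held 127, 129.8, 72.3, 117 and 169 CPM and treated monocytes 219, 295, 168, 184 and 176 CPM. A single control library, macrophage replicate 4 and monocyte replicate 5, reached into the treated range in each cell type. Ass1 rose in monocytes by 0.76 (SE 0.23, adjusted p = 0.0234), and in macrophages the change was 0.71 (SE 0.23, adjusted p = 0.071). The monocyte call was lost without monocyte control replicate 3 or 4 or treated replicate 1 or 2 (0.62, 0.72, 0.73 and 0.58, adjusted p = 0.0712, 0.0618, 0.0501 and 0.0834). In macrophages it passed without control replicate 4 (0.91, adjusted p = 0.0215) and by DESeq2 (0.72, adjusted p = 0.0269).

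Asl (Entrez 109900, chromosome 5, 130011258 to 130024381) splits argininosuccinate into arginine and fumarate. It ranged only from 37.7 to 64.9 CPM over all 20 libraries, and its treatment effects were 0.14 (SE 0.10, adjusted p = 0.448) in macrophages and 0.18 (SE 0.10, adjusted p = 0.193) in monocytes. Odc1 (Entrez 18263, chromosome 12, 17544808 to 17551502), the ornithine decarboxylase that opens polyamine synthesis, ranged from 30.02 to 46.6 CPM. Its effects were -0.16 (SE 0.11, adjusted p = 0.397) and -0.15 (SE 0.11, adjusted p = 0.335). The 95% intervals of these 4 effects lay between -0.38 and 0.39.

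**Figure D1:**
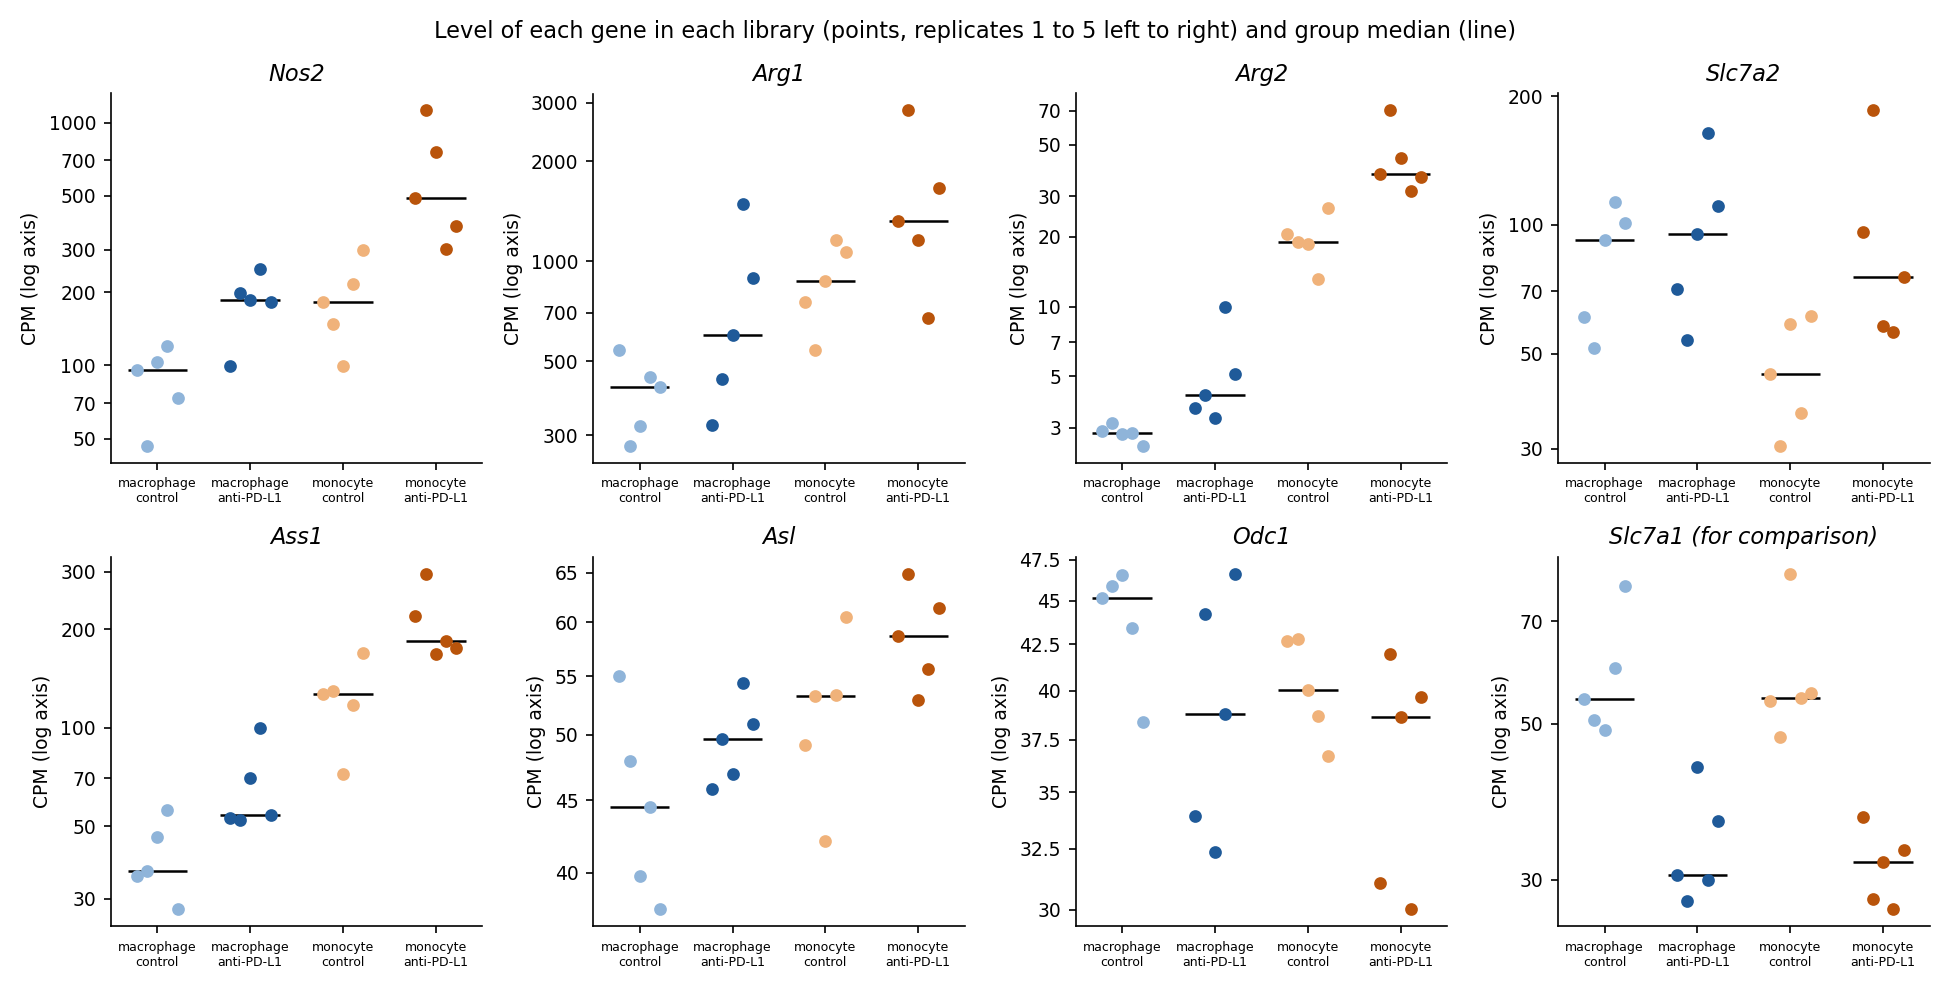
CPM of each gene on a log axis in each of the 20 libraries (points, replicates 1 to 5 from left to right) with the median of each group (line); Slc7a1, another arginine carrier, is shown for comparison. Treated monocytes have the highest median of Nos2, Arg1, Arg2 and Ass1, Asl and Odc1 stay between 30.02 and 64.9 CPM, and every treated library has less Slc7a1 than any control library of its cell type.

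In monocytes, then, 4 of 7 genes rose after anti-PD-L1 (Nos2, Arg2, Slc7a2 and Ass1) and 0 fell, where 25.3% of all 15390 genes tested passed (9.92% rose and 15.4% fell). The median log2 fold change of the 7 genes was 0.80, beside 0.02 over all genes. In macrophages 0 of 7 passed edgeR's test in either direction, where 4.65% of all genes passed (1.73% rose and 2.92% fell). There 4 of the 7 (Nos2, Arg1, Arg2 and Ass1) had an unadjusted p under 0.05, as had 3620 of all 15390 genes. DESeq2 called 3 of the 7 and 1878 of all genes. The median of the 7 was 0.71, beside -0.01 over all genes. In these bulk samples, fewer cells of a type and less RNA per cell cannot be told apart. The groups did not overlap for Arg2 in macrophages, where 6.94% of all genes separated, nor for Nos2 and Arg2 in monocytes, where 7.23% did.

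**Figure D2:**
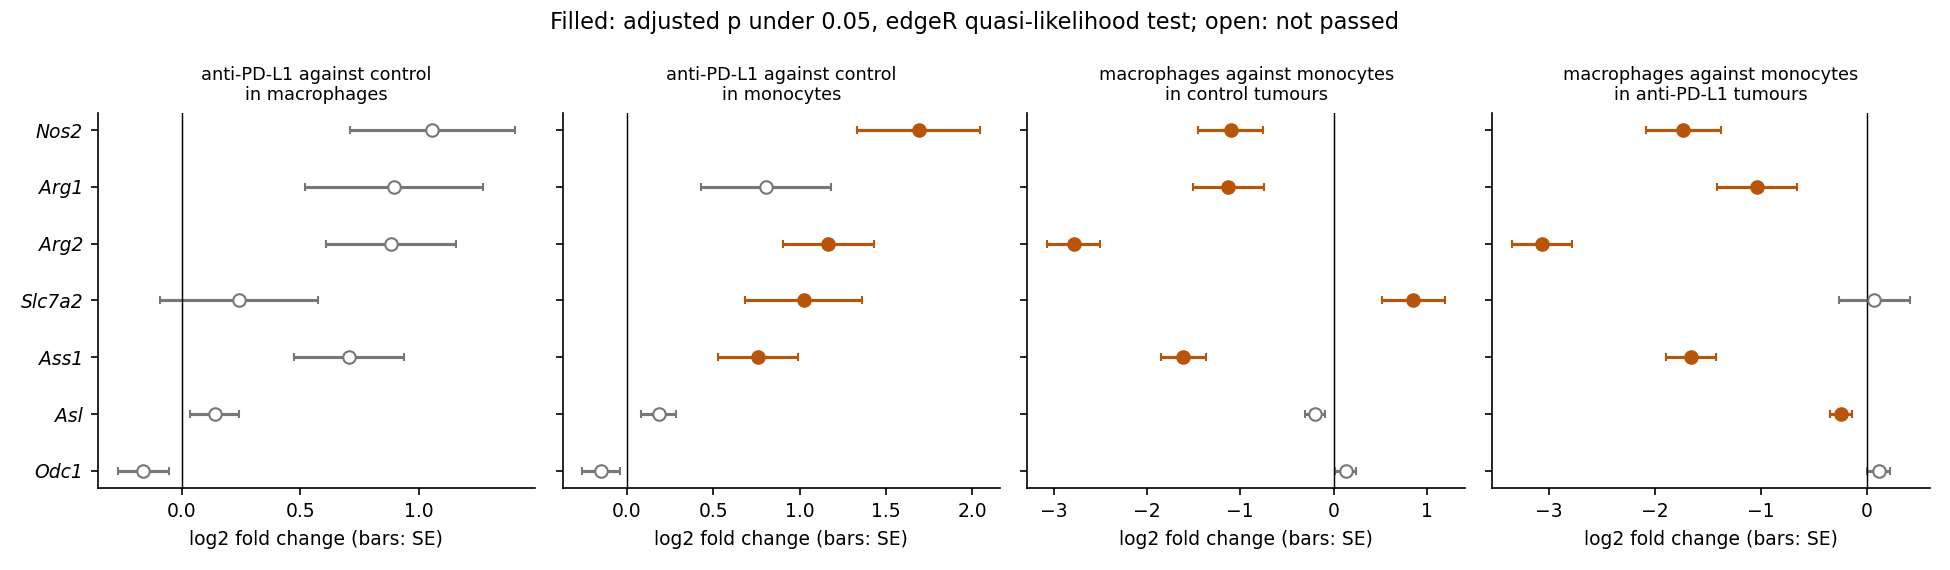
Log2 fold changes of the 7 genes with standard errors (bars) in the treatment comparisons (left) and in macrophages against monocytes (right), filled where the adjusted p is under 0.05. The treatment effects of Nos2, Arg2 and Ass1 are positive in both cell types and pass in monocytes, and Asl and Odc1 lie near 0.

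The difference of the treatment effects was tested directly. Macrophage minus monocyte, it was -0.63 (SE 0.49, adjusted p = 0.912) for Nos2 and -0.78 (SE 0.47, adjusted p = 0.853) for Slc7a2, and between -0.28 and 0.09 for the other 5. None of the 7 passed after adjustment, and 0% of all genes did by edgeR. An unadjusted p under 0.05 was found for 980 of all 15390 genes and for none of the 7. The 95% interval for Nos2 ran from -1.59 to 0.33 and that for Slc7a2 from -1.71 to 0.14, so that a difference of 1 log2 unit could not be told from none for either gene. The sign of the small differences was not stable: that of Asl changed in 10 and that of Odc1 in 14 of 27 alternatives. DESeq2 called 7 and the block fit 8 of all genes, with 0 of the 7 described here among them in both.

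Fibroblast marker RNA fell with treatment in both cell types (9 of 19 markers in macrophages and 12 of 19 in monocytes). The 4 monocyte calls were lost in both fits made to allow for it. With the mean log2 CPM of the markers as a covariate the monocyte effects were 1.38 for Nos2, 0.89 for Arg2, 0.61 for Slc7a2 and 0.25 for Ass1 (adjusted p = 0.155, 0.215, 0.556 and 0.676). Without the 6 control libraries highest in these markers they were 1.43, 0.93, 1.02 and 0.46 (adjusted p = 0.27, 0.325, 0.456 and 0.523). These stand against 1.69, 1.17, 1.02 and 0.76 in the fit to all libraries. The fit without the 6 kept only macrophage control replicates 2 and 4 and monocyte control replicates 2 and 5. For Slc7a2 in monocytes its standard error was 0.53, against 0.34 with all libraries. In macrophages the covariate took Ass1 from 0.71 to 0.18, and Nos2 from 1.06 to 0.72. Both fits called few genes of any kind (5 and 83 in monocytes), and the part of fibroblast RNA in these results was not tested further.

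**Figure D3:**
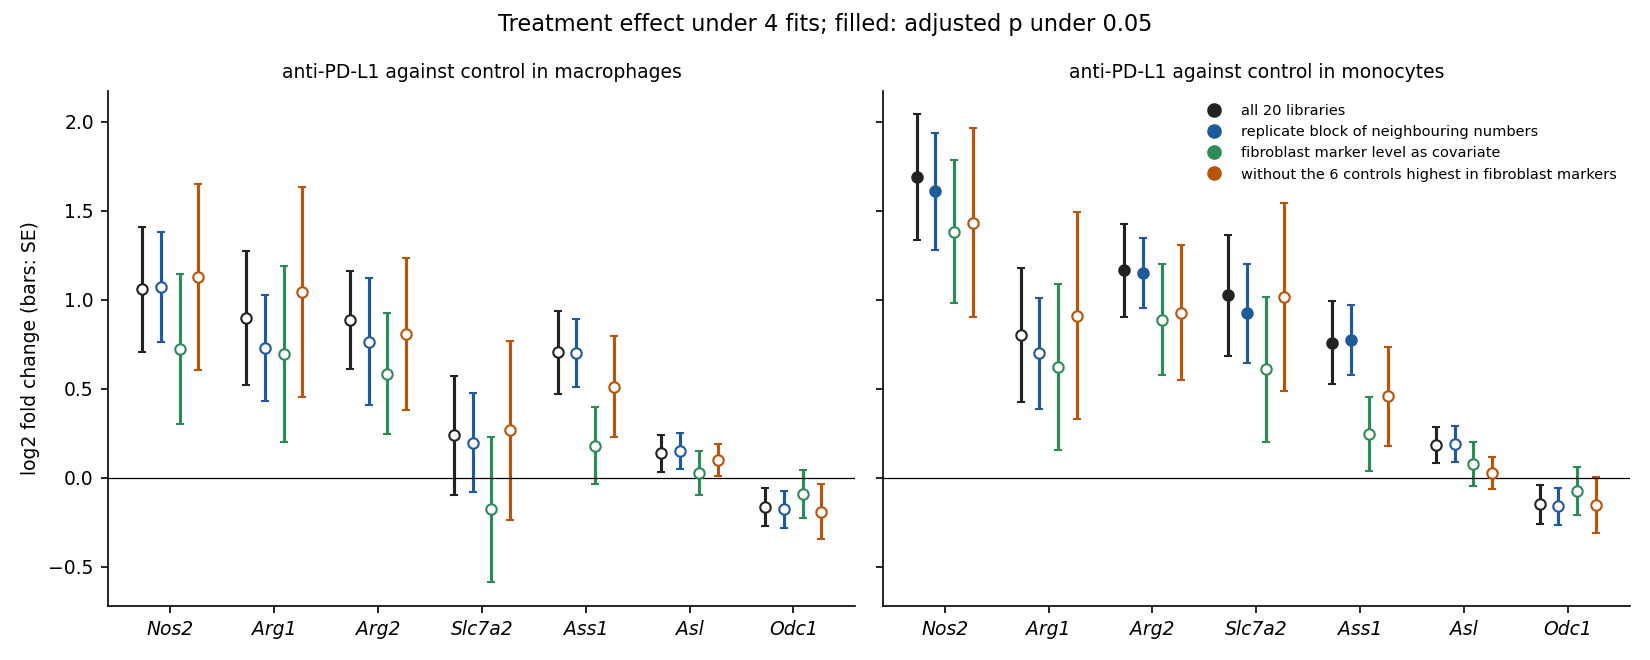
Treatment effect (log2 fold change, bars are standard errors) of each gene in macrophages (left) and monocytes (right) in the fit to all libraries, with neighbouring sample numbers as a replicate block, with a covariate for fibroblast marker RNA, and without 6 control libraries; filled where the adjusted p is under 0.05. The block changes no call, while the covariate lowers Ass1 to 0.18 and 0.25 and Nos2 in monocytes lies between 1.38 and 1.69 in the 4 fits.

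Monocytes carried more of most of these transcripts than macrophages. In control tumours 4 of 7 genes were lower in macrophages and 1 was higher, where 44.1% of all genes differed, 3084 of them lower and 3700 (24.0%) higher. In treated tumours 5 of 7 were lower and 0 higher, where 53.9% of all genes differed (25.7% lower and 28.2% higher). Arg2 differed most, at -2.78 (SE 0.28, adjusted p = 2.46e-07) in control and -3.07 (SE 0.28, adjusted p = 4.46e-08) in treated tumours. Ass1 followed, at -1.61 (SE 0.24, adjusted p = 1.93e-05) and -1.66 (SE 0.24, adjusted p = 8.74e-06). Nos2 was lower in macrophages too, at -1.10 (SE 0.35, adjusted p = 0.015) in control and -1.73 in treated tumours (SE 0.36, adjusted p = 0.000391). Arg1 was lower too, at -1.13 (SE 0.38, adjusted p = 0.0202) and -1.03 (SE 0.38, adjusted p = 0.0261).

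The carrier gene went the other way. Slc7a2 was higher in macrophages of control tumours (0.86, SE 0.34, adjusted p = 0.0458), while in treated tumours the values were alike within their spread (0.07, SE 0.33, adjusted p = 0.875, 95% interval -0.58 to 0.73; -0.06 with the fibroblast covariate). Its call in control tumours was lost in 10 of 20 fits that each left out 1 library, lowest without macrophage control replicate 4 (0.68, adjusted p = 0.13), with DESeq2's size factors (0.81, adjusted p = 0.0575) and with the fibroblast covariate (0.73, adjusted p = 0.0712). Asl was at -0.20 (SE 0.10, adjusted p = 0.124) in control tumours and passed there with the replicate block (-0.20, adjusted p = 0.016) and without the 6 control libraries (-0.31, adjusted p = 0.0282). In treated tumours it passed narrowly (-0.25, SE 0.10, adjusted p = 0.04997) and did not in 19 of 20 fits without 1 library, nor by limma-voom (adjusted p = 0.0536) or without the filter on low counts (adjusted p = 0.111). It passed there with the replicate block (adjusted p = 0.00403), with the treated libraries alone (0.00386), with the fibroblast covariate (0.0233), without the 6 control libraries (0.00732) and by DESeq2 (0.0306). Odc1 was at 0.13 (SE 0.11) and 0.11 (SE 0.11) and did not pass in either.

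Of the other differences between cell types, that of Nos2 in control tumours was lost without monocyte control replicate 5 (-0.87, adjusted p = 0.0575). That of Arg1 in treated tumours was lost without treated macrophage replicate 1, 2 or 3 (-0.81, -0.87 and -0.94, adjusted p = 0.0707, 0.0725 and 0.0625) or treated monocyte replicate 2 (-0.66, adjusted p = 0.133). Without the 6 fibroblast-rich controls, Nos2, Arg1 and Slc7a2 did not pass in control tumours (-1.42, -1.15 and 0.84, adjusted p = 0.0675, 0.183 and 0.278). For control tumours that fit compared only macrophage control replicates 2 and 4 with monocyte control replicates 2 and 5. Neutrophil markers also differed. Of 12, 7 were tested and all 7 were lower in macrophages than in monocytes. Their summed level was 50.7 to 88.3 CPM in control and 80.0 to 125 in treated macrophages, 195 to 424 in control and 265 to 583 in treated monocytes, with Camp, Ngp and Elane at 0 in all control and Camp in all treated macrophage libraries. In macrophages Csf3r made up most of this sum, at 48.3 to 124 CPM, and no other neutrophil marker exceeded 2.78 CPM there. The part of neutrophil RNA in these differences was not tested.

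Levels of different genes were compared per length, on the deposited RPKM (reads scaled by gene length and library size). On this scale Arg1 stood first in all 4 groups, at 261 ± 67.7, 492 ± 304, 588 ± 163 and 1024 ± 541 RPKM (SD, n = 5) in control macrophages, treated macrophages, control monocytes and treated monocytes. Its range overlapped that of no other member in any group. In control macrophages the order went on with Ass1 (23.8 ± 6.58), Asl (22.1 ± 3.43), Nos2 (19.6 ± 6.41) and Odc1 (16.6 ± 1.24), neighbours whose ranges overlapped. Slc7a2 (9.19 ± 2.90) followed, its range below that of Odc1 but overlapping the lower end of that of Nos2. Arg2 (1.93 ± 0.17) lay below all the others.

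In treated monocytes Nos2 (139 ± 76.5 RPKM) stood second and overlapped with Ass1 (126 ± 30.8). Both lay above Arg2 (30.6 ± 10.7) and Asl (29.6 ± 2.29), which overlapped with each other, and above Odc1 (14.1 ± 2.15) and Slc7a2 (10.6 ± 5.94). Nos2 stood at place 4 in control and 2 in treated macrophages, and at place 3 in control and 2 in treated monocytes. In every group its range overlapped that of Ass1. Arg2 stood at place 7 in macrophages of both kinds, 6 in control monocytes and 4 in treated monocytes.

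The ratio of Arg1 to Nos2, each in RPKM, was above 1 in every library. It had a median of 16.5 in control macrophages (range 9.02 to 17.4), 9.45 in treated macrophages (6.49 to 17.5), 12.1 in control monocytes (10.5 to 25.5) and 7.40 in treated monocytes (4.46 to 12.9). The ranges overlapped between treated and control libraries of both cell types, and the ratio was not tested. The ratio of Arg1 to Arg2 had medians of 151 and 143 in control and treated macrophages and 38.4 and 33.7 in control and treated monocytes. It separated the cell types only narrowly. The lowest macrophage value was 84.8 (treated replicate 1) and the highest monocyte value 84.2 (control replicate 4). Ass1 to Asl, the consecutive enzymes of arginine recycling, went from 0.77 to 1.51 in control macrophages up to 3.43 to 5.47 in treated monocytes.

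**Figure D4:**
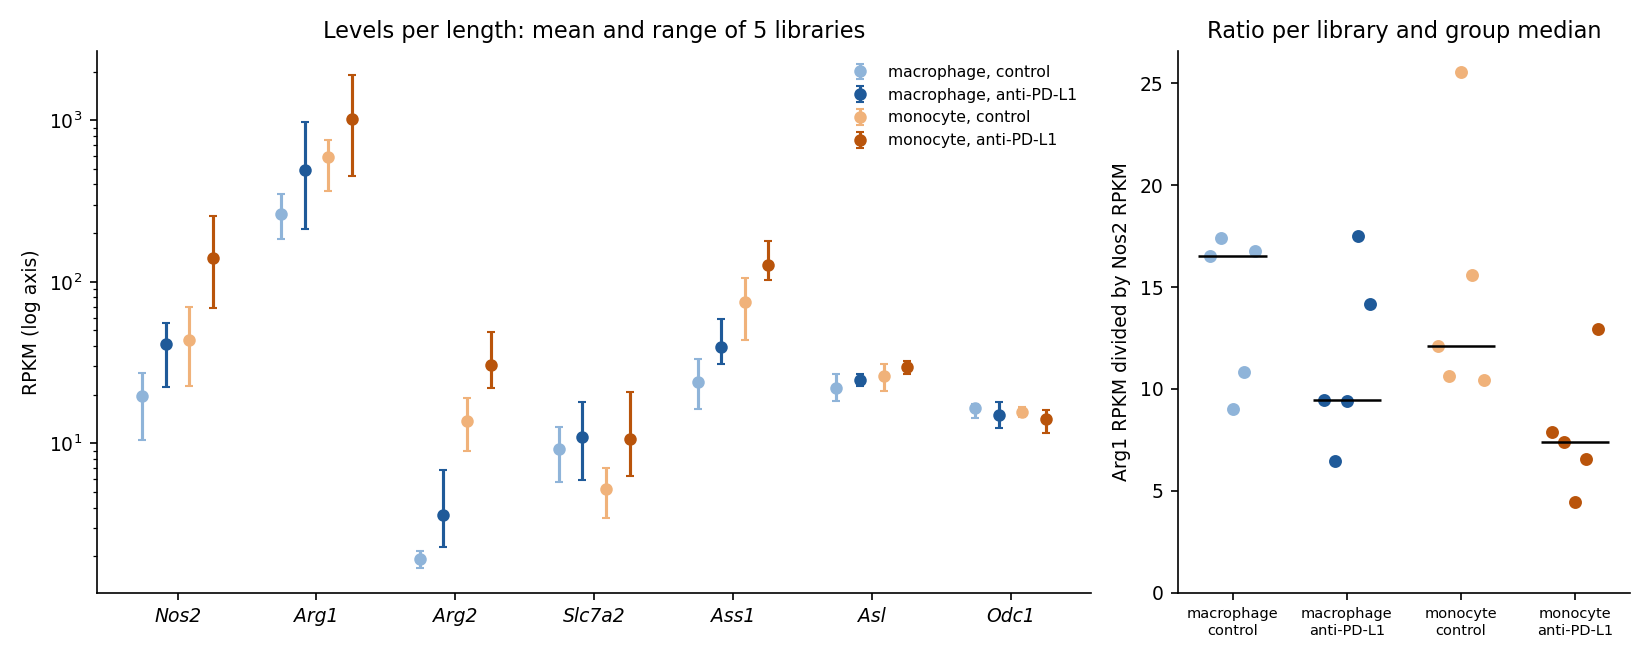
Left, mean and range over 5 libraries of each gene in deposited RPKM on a log axis, by group; right, the Arg1 to Nos2 ratio of RPKM in each library with the group median (line). Arg1 lies above the other genes in all groups, from 261 to 1024 RPKM on average, and the ratio has its highest median, 16.5, in control macrophages and its lowest, 7.40, in treated monocytes, with overlapping ranges.

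Nos2 and Arg1 varied in the same direction across libraries. To keep the group differences out, each library's log2 CPM was taken as a deviation from its group mean. Across all 20 libraries Pearson's r was 0.65 (permutation p = 0.00424, adjusted p = 0.0127) and Spearman's rho 0.58 (permutation p = 0.0122, adjusted p = 0.0365). These p-values treat the 20 libraries as independent, while macrophage and monocyte libraries with neighbouring sample numbers deviated together; with each such pair averaged, r was 0.70 over 10 values and the relation no longer passed (permutation adjusted p = 0.0612). In the 10 macrophage libraries r was 0.67 (permutation p = 0.0319, adjusted p = 0.0479) and rho 0.54 (permutation p = 0.1, adjusted p = 0.117). In the 10 monocyte libraries r was 0.66 (permutation p = 0.0686, also when adjusted) and rho 0.58 (permutation p = 0.117, also when adjusted). The p-values are two-sided, with libraries permuted within their group, and were adjusted over these 3 relations.

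The relation rests on a few libraries at the ends. Treated macrophage replicate 4 and treated monocyte replicate 2 were highest in their group in both genes. Lowest in their group in both were treated macrophage replicate 1, treated monocyte replicate 4 and macrophage control replicate 2. The highest 2 have neighbouring sample numbers and so have the lowest 2 of the treated libraries, so these 4 treated libraries are not independent points. Without the 2 libraries farthest from the median of Nos2, r was 0.49 over all libraries (treated monocyte replicates 2 and 4 left out, permutation adjusted p = 0.147). It was 0.33 in macrophages (without control replicate 2 and treated replicate 1) and 0.33 in monocytes (without treated replicate 2 and control replicate 5), with a permutation adjusted p = 0.463 for both. In macrophages r ranged from 0.47 to 0.76 when 1 library was left out and missed the threshold in 8 of 10 cases, with adjusted permutation p up to 0.117. In monocytes r ranged from 0.42 to 0.76, and passed without control replicate 3 or treated replicate 5 (0.76 in both, adjusted permutation p = 0.0405 and 0.0418). Over all libraries r stayed between 0.55 and 0.71 with adjusted permutation p up to 0.0479. Spearman's rho over all libraries was less stable. It did not pass on log2 RPKM, with DESeq2's size factors or with the fibroblast level removed (permutation adjusted p = 0.0556, 0.0559 and 0.141). Nor did it without some single libraries, such as treated monocyte replicate 2 (rho 0.44, permutation adjusted p = 0.117).

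**Figure D5:**
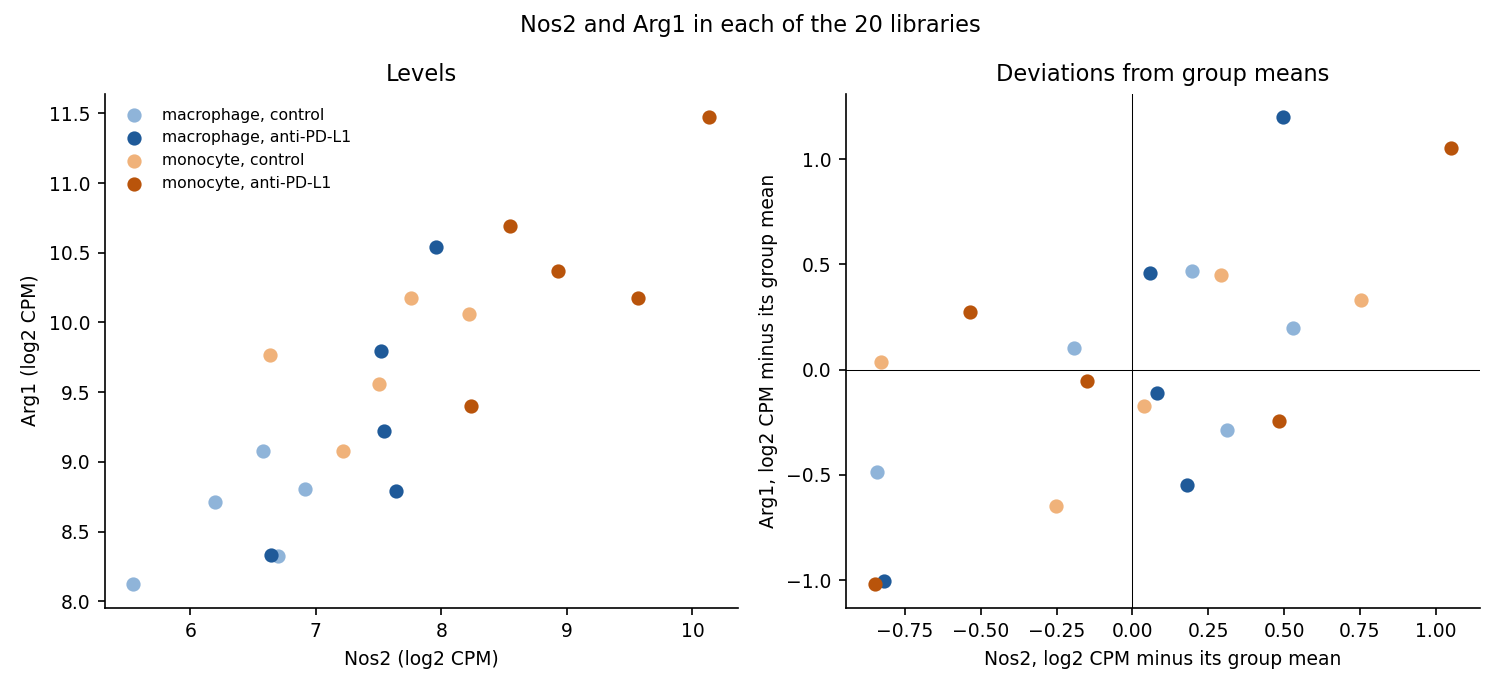
Nos2 (horizontal) against Arg1 (vertical) in each of the 20 libraries, coloured by group, as log2 CPM (left) and as deviations from the group means (right). Libraries high in one gene tend to be high in the other (r = 0.65 on the right), with the clearest points at the upper right and lower left ends.

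Macrophages and monocytes with neighbouring sample numbers also varied together in these genes, a relation examined after the data were seen. Over the 10 neighbouring libraries the deviation of the macrophage library followed that of the monocyte library with r = 0.97 (rho 0.98, permutation p = 0.00013) for Arg1, 0.93 for Ass1, 0.92 for Slc7a2 and 0.74 (rho 0.87, permutation p = 0.0186) for Nos2. Adjusted over the 7 genes, the permutation p was 0.00091, 0.00315, 0.00315 and 0.0326. Without the 2 farthest neighbours r was 0.91, 0.85, 0.91 and 0.92. The values for Arg2, Asl and Odc1 (0.67, 0.61 and 0.72) did not pass, and that of Arg2 was 0.08 without the 2 farthest. The median r over all 15390 genes was 0.564, with quartiles of 0.271 and 0.76, so that many genes shared this pattern. Within neighbours, the monocyte library was the higher one in 10 of 10 for Nos2, Arg1, Arg2 and Ass1, in 9 for Asl, in 3 for Slc7a2 and in 2 for Odc1.

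Likeness was measured over 9784 genes whose log2 CPM averaged 2 or more and whose symbol was not provisional. Those most like Nos2 in log2 CPM over the 20 libraries were Katna1 (r = 0.94), which severs microtubules, Plin2 (0.93), which coats lipid droplets, Fbxl5 (0.92), a regulator of iron balance, Nampt (0.92), an enzyme of NAD synthesis, and Bst1 (0.91), a surface enzyme that consumes NAD. Arg1 came at place 137 by this measure, with r = 0.84, and Ass1 at place 39. The libraries share cell type and treatment, which sets much of such a correlation. By deviations from group means the closest to Nos2 were Grina, Il7r and Tmem140 (0.81 each), with Ass1 at place 45 (0.67) and Arg1 at place 59 (0.65).

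Most like Arg1 in log2 CPM were Mir147 (0.88), Slc27a4 (0.88), a fatty acid carrier, Gadd45a (0.88), a stress response gene, Dedd2 (0.88) and AA467197 (0.87). Mir147 lies within AA467197 on chromosome 2, so their reads cannot be told apart and both are uncertain. By deviations the closest were Dedd2 (0.82), Cd24a (0.80) and Ecm1 (0.79). Slc7a2 came at place 20 (0.75), ahead of Nos2 at place 75 and Arg2 at place 77.

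The lists of partner genes that follow are read against all genes, of which 2.92% fell and 1.73% rose in macrophages and 15.4% fell and 9.92% rose in monocytes. Of the carriers of arginine and other amino acids beside Slc7a2 (9 tested of 11 listed), 2 fell in macrophages, and 3 fell and 1 rose in monocytes, with more falling than rising as among all genes. Slc7a1, which encodes CAT1, the other main arginine carrier, was at 49.0 to 78.5 CPM in control and 28.0 to 43.4 in treated macrophages, and at 47.9 to 81.8 in control and 27.2 to 36.9 in treated monocytes. The groups did not overlap in either cell type. It fell by 0.80 (SE 0.16, adjusted p = 0.0356) and by 0.90 (SE 0.16, adjusted p = 0.00337) on the log2 scale, while Slc7a2 rose in monocytes. In RPKM, Slc7a1 went from 6.42 ± 1.42 to 3.43 ± 0.42 in monocytes and Slc7a2 from 5.24 ± 1.57 to 10.6 ± 5.94 (SD, n = 5). With the fibroblast covariate Slc7a1 was at -0.73 and -0.83 (adjusted p = 0.426 and 0.0998), and without the 6 control libraries at -0.72 and -0.74 (adjusted p = 0.0755 and 0.0672).

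Slc7a5, the large neutral amino acid carrier, fell by 1.15 (SE 0.23, adjusted p = 0.0356) in macrophages and by 1.30 (SE 0.23, adjusted p = 0.00337) in monocytes. In monocytes Slc25a15, the mitochondrial ornithine carrier, fell by 0.43 (SE 0.12, adjusted p = 0.0196). Slc7a7, a carrier that exports cationic amino acids, rose by 0.41 (SE 0.15, adjusted p = 0.0488), a call lost in 18 of 20 fits without 1 library.

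Of 15 tested genes of 17 for the nitric oxide synthases, their cofactor and their inhibitors, 1 fell in macrophages and 3 in monocytes, and 0 rose, beside 2.92% and 15.4% of all genes that fell. Ddah2, which breaks down the synthase inhibitor asymmetric dimethylarginine, fell by 1.34 (SE 0.27, adjusted p = 0.0356) and by 1.36 (SE 0.27, adjusted p = 0.00437). Prmt1, which methylates protein arginine, fell in monocytes by 0.61 (SE 0.14, adjusted p = 0.00585). Gchfr, which encodes a regulator of the cofactor enzyme, also passed as lower in monocytes (adjusted p = 0.0115) but was near the floor of 3 counts per library, at 0.47 ± 0.30 CPM in controls and 0.05 ± 0.07 after treatment (SD, n = 5). Gch1, the first enzyme in making the synthase cofactor tetrahydrobiopterin, was at 0.31 (SE 0.20) in both cell types and did not pass (adjusted p = 0.377 and 0.266), with values of -0.06 in both under the fibroblast covariate. Like Nos2, it was lower in macrophages than in monocytes, by log2 fold changes of -1.94 and -1.93 (SE 0.21 each, adjusted p = 4.11e-07 and 2.66e-07) in control and treated tumours.

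Of 12 tested genes of 15 for the urea cycle and ornithine use, 1 fell in macrophages, and 5 fell and 1 rose in monocytes, where 15.4% of all genes fell and 9.92% rose. Pycr1, which makes proline, fell by 2.14 (SE 0.50, adjusted p = 0.0397, 0.0757 with the replicate block) in macrophages and by 2.15 (SE 0.50, adjusted p = 0.00695) in monocytes. With the fibroblast covariate these values were -0.40 and -0.54 and did not pass (adjusted p = 0.904 and 0.442). In monocytes the proline enzyme gene Aldh18a1 fell by 0.60 (SE 0.18), the creatine enzyme Gamt by 0.73 (SE 0.17) and the antizyme inhibitor Azin2 by 1.02 (SE 0.29; adjusted p = 0.0176, 0.0635 with the replicate block). Aldh4a1, which degrades proline, rose by 0.35 (SE 0.08, adjusted p = 0.0091). Oat, which turns ornithine towards proline and glutamate, was at -0.00 (SE 0.08) and -0.01 (SE 0.08) and was higher in macrophages than in monocytes by 0.46 and 0.47.

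Of 15 matched genes of 19 for polyamines, 1 fell in macrophages, 7 fell in monocytes and 0 rose, beside 2.92% and 15.4% of all genes that fell. Oaz1, Oaz2, Oaz3 and Enosf1 were not analysed here. The spermidine synthase gene Srm fell in monocytes by 1.12 (SE 0.21, adjusted p = 0.00386), and in macrophages its change was -0.50 (SE 0.21, adjusted p = 0.142). Mtap, which recycles methylthioadenosine from polyamine synthesis, fell in monocytes by 1.28 (SE 0.26, adjusted p = 0.00483), Dohh and Eif5a, the enzyme and the factor of hypusine modification, by 0.35 (SE 0.09) and 0.27 (SE 0.09), and the spermine synthase gene Sms by 0.61 (SE 0.18; adjusted p = 0.0226, 0.0685 with the replicate block). Sat2 and Slc18b1, both below 3 CPM in all 4 group means, fell by 2.06 (SE 0.42) and 2.68 (SE 0.72). Azin1, an inhibitor of antizyme, fell in macrophages by 0.29 (SE 0.08, adjusted p = 0.0487, 0.0953 with the replicate block), a call lost in 17 of 20 fits without 1 library. Sat1, which acetylates polyamines, was at 0.03 (SE 0.17) and 0.35 (SE 0.17), and Smox, which oxidises spermine, at 0.34 (SE 0.22) and 0.36 (SE 0.22), and neither passed.

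Of 17 regulators of Nos2 and Arg1 transcription, all tested, 4 rose in macrophages and 11 in monocytes, and 0 fell, where 1.73% and 9.92% of all genes rose. The other 13 and 6 did not pass, and the median log2 fold changes were 0.30 and 0.43. In monocytes the interferon pathway genes Irf1 (0.77, SE 0.17), Irf8 (0.67, SE 0.17) and Ifngr2 (0.37, SE 0.08) rose. So did the endotoxin receptor gene Tlr4 (0.60, SE 0.09), the hypoxia factor gene Hif1a (0.58, SE 0.16) and Il4ra (0.46, SE 0.12), which encodes the receptor chain for interleukin-4, and Cebpd (0.23, SE 0.08), whose call the replicate block ended (adjusted p = 0.0655). In macrophages Il4ra (0.57, SE 0.12), Tlr4 (0.34, SE 0.09) and Cebpd (0.35, SE 0.08) were among those that rose, of which Tlr4 and Cebpd did not pass with the block (adjusted p = 0.0724 and 0.0581). Receptors and factors known for Nos2 and those known for Arg1 were both among the genes that rose in monocytes. Between cell types 12 of the 17 were lower in control macrophages than in control monocytes and 2 were higher. Of all 15390 genes, 3084 were lower and 3700 higher in that comparison. In treated tumours 11 of the 17 were lower and 2 higher, beside 3959 lower and 4334 higher of all genes.

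Most of these partner calls were sensitive to single libraries in macrophages. Slc7a1, Slc7a5, Ddah2 and Il4ra each lost their call without macrophage control replicate 1 or 5 or treated macrophage replicate 1 or 4, with adjusted p up to 0.0917, 0.086, 0.086 and 0.086. Pycr1 lost it in 7, Tlr4 in 9 and Cebpd in 5 of 20 such fits. In monocytes Cebpd lost its call in 17, Eif5a in 5 and Sms in 3 of 20 fits, Azin2 and Slc25a15 without control replicate 3 or 4 (adjusted p up to 0.0721 and 0.0598), Aldh18a1 without control replicate 3 (0.0714) and Hif1a without treated replicate 2 (0.0527). The fibroblast covariate ended all 9 partner calls in macrophages and all 28 examined in monocytes, and leaving out the 6 control libraries ended all 9 and all 27 that could then be tested. The difference of treatment effects between cell types passed for 0 genes of these lists by edgeR's quasi-likelihood test. Of the genes named here, Gamt, Sat2, Azin1 and Dohh had an unadjusted p under 0.05, with adjusted p from 0.688 to 0.763. That unadjusted threshold was met by 980 of all 15390 genes.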

How the data were processed

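RNA was read from 20 libraries of sorted tumour macrophages and monocytes. The labels name polyA RNA as the molecule, and per the labels' protocols a stranded total RNA kit was used. Per the submitters' processing notes, the authors aligned reads with GSNAP to GRCm38. Not given in the sources used here are the version of the aligner, the annotation, the counter and its strand setting. Per the file headers, the deposited count is of uniquely aligned reads per gene model, and the deposited RPKM is the authors' normalized value. Of 36528 models, 31049 (85.0%) matched a symbol, holding 98.0% of counts. RPKM was used only for levels between genes and for ratios, and CPM (on TMM library sizes) for the rest.

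Counts were tested with edgeR 4.0.16 (R 4.3.3; filterByExpr, TMM, 1 mean per group over all 20 libraries, quasi-likelihood test), with Benjamini-Hochberg adjustment over 15390 genes and a threshold of 0.05. The standard error is the log2 fold change over the root of F. Correlations used log2 CPM (prior count 2) and 100000 permutations, or fewer where 1 library was left out (Python 3.11.15, numpy 2.4.6). DESeq2 1.42.0, limma 3.58.1 (voom), other scaling, no filter, single libraries left out and fibroblast RNA (19 markers) were alternatives. Simulated counts of 15390 genes were drawn as independent libraries, without the link between neighbouring sample numbers. Only genes above a minimum mean level were changed. Of the 67 genes changed 2-fold in each comparison, 86.6% were recovered in macrophages and 89.6% in monocytes.

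Same-treatment macrophage and monocyte libraries with consecutive sample numbers deviated from their group means together in all 10 cases (correlations 0.218 to 0.722, median 0.426, beside a median of -0.12 for other such library pairs), and 9 macrophage libraries correlated best with their neighbour. The labels do not say that neighbours share a tumour. The members and lists were chosen with earlier results of these data known. The 7 genes were always named. Partner genes were named where called in a treatment comparison, up to the 8 with the smallest p per list, with 9 more named always (Slc7a1, Gch1, Ddah2, Oat, Srm, Sat1, Smox, Oaz1 and Azin1). Results for some items are not reported here.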

Additional observations from a re-analysis of the deposited data

How the results depend on the processing

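No result that passed its test changed sign under any alternative; some values that passed neither before nor after did, among them Slc7a2 in macrophages (0.24 to -0.18) and in treated tumours (0.07 to -0.06) with the fibroblast covariate, and Gch1 in both cell types with it and without the 6 control libraries. In macrophages, of the 7 genes DESeq2 called 3 and a fit of the macrophage libraries alone called 1 (Nos2). There, of all genes, edgeR called 266 higher and 449 lower, DESeq2 1878 in all, limma-voom 191 (148 higher and 43 lower), the replicate block 243 (195 higher and 48 lower), the macrophage libraries alone 1193, the fibroblast covariate 2 and the fit without 6 control libraries 70. In monocytes the covariate and the fit without 6 each called 0 of the 7, and of all genes 5 and 83, beside 2019 with the monocyte libraries alone. For the difference of effects, DESeq2 called 7 and the block 8 of all genes. Between cell types in control tumours, 3 of the 7 were called without the 6 control libraries. Leaving out 1 library gave 0 to 3 of the 7 and 14 to 1928 of all genes in macrophages, 2 to 4 and 1883 to 5359 in monocytes, 0 to 0 and 0 to 41 for the difference, 4 to 6 and 6000 to 7363 between cell types in control tumours, and 3 to 5 and 7721 to 8643 in treated tumours. The replicate block changed the call of Asl in control tumours and the 7 partner calls given with the results, and no other call of a named gene; limma-voom without it also ended 4 of the 9 partner calls in macrophages. For Nos2 with Arg1, r was 0.76 on raw values in monocytes (permutation adjusted p = 0.0106). It was 0.66 in macrophages with the fibroblast level removed (permutation adjusted p = 0.0587), 0.33 in macrophages and 0.49 over all libraries without the 2 farthest, and 0.70 with neighbours averaged, an alternative chosen after seeing the data. With 1 library left out it ran from 0.47 to 0.76 in macrophages, 0.42 to 0.76 in monocytes and 0.55 to 0.71 over all libraries. The cause of these shifts was not tested. Gchfr could not be fitted without the 6 control libraries, and the difference of effects has no separate fit on only the groups compared. Genes near the floor of 3 counts, such as Gchfr, are limited by depth.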

Other observations

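Markers of other cell types were summed in all 20 libraries. The summed level was 14.5 to 110 CPM for tumour epithelium, 7.52 to 49.9 for T and NK cells (8 of 9 markers in the files), 16.9 to 67.0 for dendritic cells and 5.50 to 19.2 for endothelium. Cdh1 made up most of the epithelial sum, at 12.5 to 110 CPM, and no other epithelial marker exceeded 1.70 CPM. Among the 21 pairs of the 7 genes, deviations from group means were positively correlated for 18 pairs in macrophages and for all 21 in monocytes, with a median r of 0.46 and 0.47, and 0 of these 42 relations passed a permutation test after adjustment.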
